A study of Nothobranchius furzeri with 2 samples.

Results

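The genes described here are those of the early secretory pathway and of protein folding in the endoplasmic reticulum (ER) of the turquoise killifish *Nothobranchius furzeri*. They were taken as the rows of the count table whose gene name, without an ending such as "(1 OF 2)", was 1 of 50 listed symbols or such a symbol with 1 paralog letter. This gave 52 genes for 44 of the symbols, out of 18529 annotated genes. The letter rule also took CALRL (calreticulin like) and LMAN2L. The symbols SEC61G, SEC11C, PDIA6, STT3A, DAD1 and OSTC matched no row and were not analysed here.

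Female livers were the subject and all muscles the reference. Fish of the GRZ strain were injected as 1-cell embryos with a standard control morpholino (control, Cont) or with a morpholino against *dnd*, a gene needed for primordial germ cells to migrate and survive (germ cell–removed, GR). Liver and skeletal muscle were taken at 1.5 months (young) or 3 months (old). Each group of tissue, sex, age and treatment had 5 animals, each giving its own barcoded library of that tissue. The paper does not say whether liver and muscle came from the same fish. The main fits of liver against muscle took the libraries as separate. The 20 female livers and 40 muscles were counted by BRB-seq, a pooled 3′ method that counts unique molecular identifiers (UMIs) per gene. A morpholino acts transiently in the embryo, and *dnd* itself had at most 4 counts in any library, so its counts do not check the labels.

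Total counts ran from 28062 to 180764 in control female livers, from 163968 to 256671 in GR female livers and from 80573 to 221897 in muscle. All 10 GR livers carried the column mark of reads sampled down to 1000000 and none of the 10 control livers did, so this step and the treatment cannot be told apart in liver. Liver and muscle were also 2 separate sequencing pools. Vitellogenins, the yolk precursors that the liver of egg-laying females secretes, took 21.7% ± 0.547 (SD, n = 5) of the counts in young control livers and 19.0% ± 3.54 in old ones, against 0.0122% ± 0.00216 and 0.0131% ± 0.00366 in GR livers. The 3 vitellogenin genes were OL-VIT1, VTG3 and Nfu_g_1_002309.

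A secreted protein is recognised as it leaves the ribosome by the signal recognition particle and threaded through the Sec61 channel into the ER. Its signal peptide is then cut off, sugars are added by the oligosaccharyltransferase, and chaperones and protein disulfide isomerases fold it. COPII coats and cargo receptors carry it towards the Golgi, and KDEL receptors bring escaped ER residents back. Liver cells are known for a large ER, because they secrete most plasma proteins and, in egg-laying females, yolk.

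Few members passed the test for germ cell removal, and those that did were mostly lower in GR livers. In young livers LMAN1, SSR2, CRELD2 and PDIA4 fell and no member rose, out of 35 members tested. Each of 5459 genes was tested with edgeR (quasi-likelihood F-test), p-values were adjusted by Benjamini-Hochberg and called below 0.05, and of all genes 1.78% were lower and 7.93% higher (9.71% in either direction). In old livers 7 of 36 members fell and 1 rose, against 2.04% of 5576 genes lower and 6.81% higher (8.86% in either direction). The same 4 genes fell there, together with SEC61B, KDELR2A and KDELR2 (1 OF 2), and SEC23B rose. A bulk library does not separate fewer cells of a type from less RNA per cell.

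The change over all members was smaller than for these few. The median gene had a log2 fold change (GR over control) of 0.43 in young and 0.44 in old livers, and the median member had -0.21 and -0.40. Of the members tested, 33 of 35 in young and 34 of 36 in old livers lay below the median gene. The median gene is not a mark of no change. GR libraries were deeper on the whole, and genes with few counts could enter the test through them. How far this moved the median gene was not tested. The size of the members' shift also depends on how libraries are scaled, and vitellogenin fills a large part of control libraries alone. With RLE size factors the median gene was at 0.16 in young livers and 10 members were called lower there (3.55% of all genes), and in old livers 10 were lower (2.83%) and 1 higher. With plain library sizes the median gene was at 0.68 in young livers, and 4 members were lower (1.28% of all genes) and 1, SDF2L1, higher (13.3%).

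**Figure D1:**
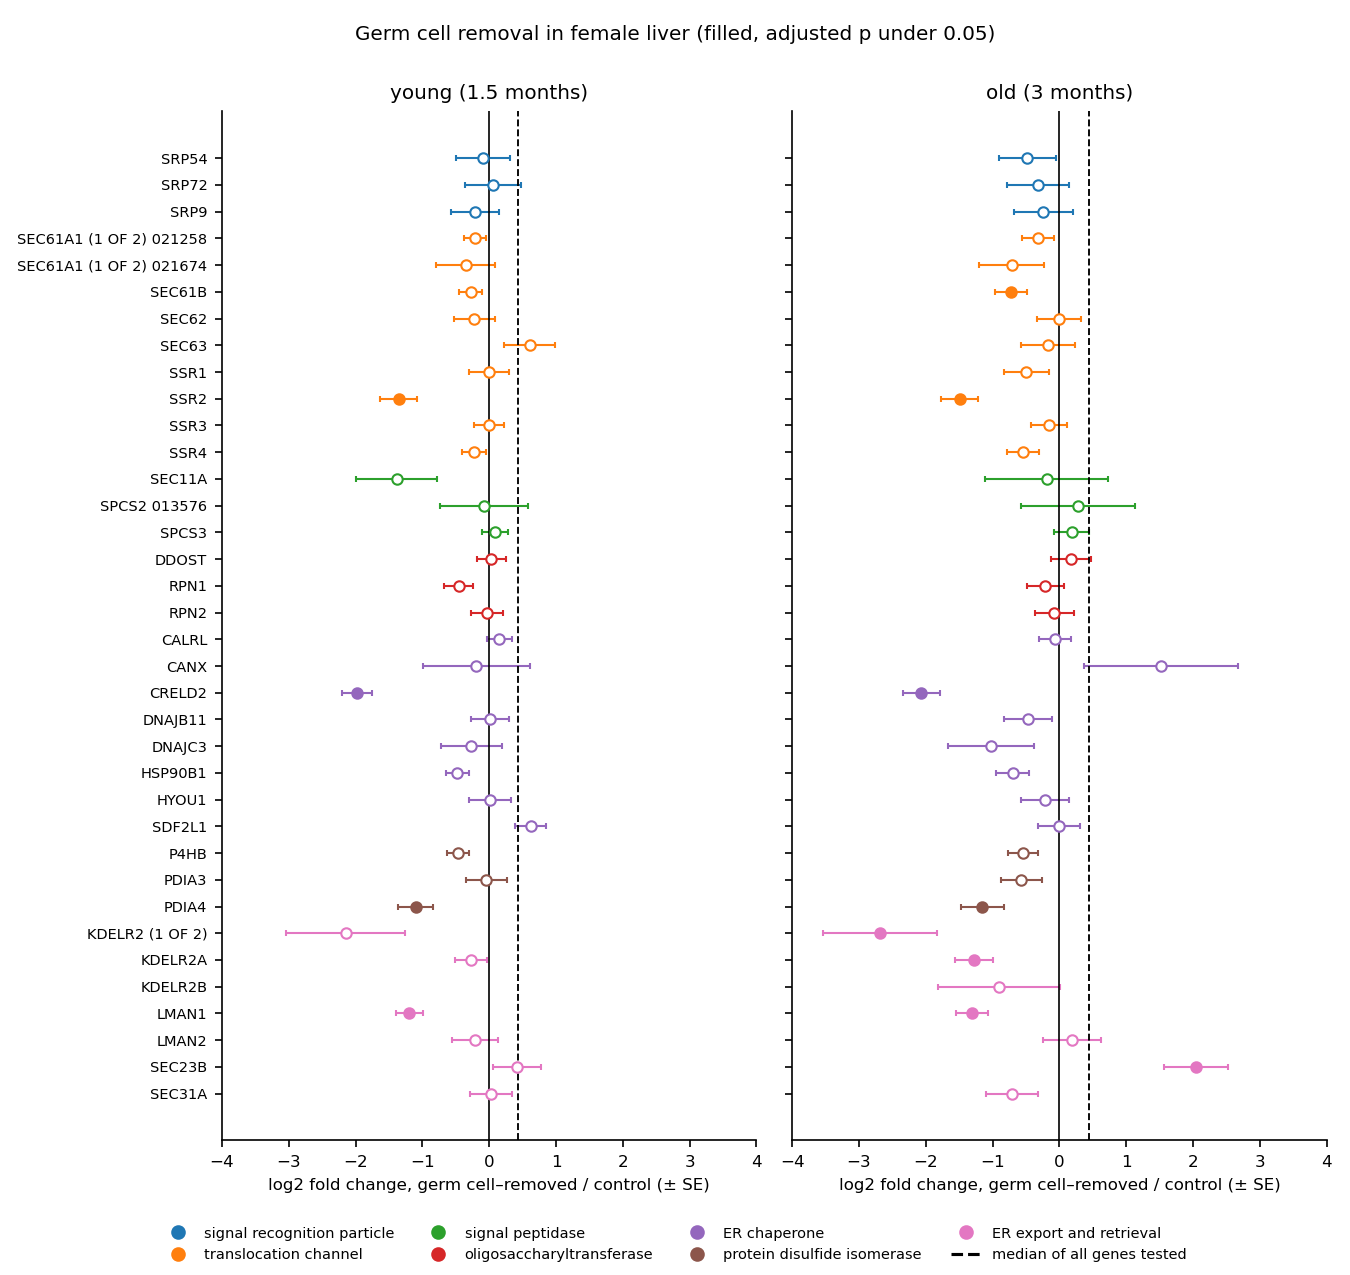
Log2 fold change (± SE) of each tested member between 5 GR and 5 control female livers, in young (left) and old (right) fish, coloured by role. Filled points passed the test, and the dashed line is the median of all genes tested (0.43 and 0.44). Most points lie to the left of that line, and SEC23B in old livers is the filled point to its right.

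Of the other members, 16 were tested at neither age, having at most 14 counts over the 20 livers, and KDELR2B was tested in old livers alone. They include TMED2, TMED10, SAR1B, SEC13, SEC24D, MANF, SRP14, SRP68, SPCS1, 1 of the 2 SPCS2 models and 3 STT3B models. HSPA5, the ER chaperone also called BiP, is annotated as 2 overlapping gene models on the same strand of sgr02. Model Nfu_g_1_006740 had 9 counts over the 20 livers, with at most 2 in any library. Model Nfu_g_1_006417 had 1, 3, 3, 0 and 0 counts in young control livers, 0 in all young GR livers, 1, 0, 1, 0 and 1 in old control livers and 1, 1, 0, 1 and 1 in old GR livers. On these few counts it was called lower in young livers under the alternatives all groups in 1 fit and every gene with at least 1 count. Both models were at 0 in every muscle. Whether reads were lost in the stretch shared by the models was not tested, so the low counts are not read here as the level of HSPA5. Levels below are counts per 1000000 (CPM) on library sizes scaled by the trimmed mean of M-values, and positions are those of the GRZ assembly used for the counts.

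In targeting, none of the 3 tested subunits of the signal recognition particle passed at either age. SRP54, which binds the signal sequence, had log2 fold changes of -0.10 ± 0.40 (SE) in young and -0.48 ± 0.43 in old livers. SRP72 had 0.05 ± 0.42 and -0.32 ± 0.46, and SRP9 had -0.21 ± 0.36 and -0.24 ± 0.44. Every one of these changes is smaller than 2 standard errors.

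Among the 9 genes of the translocation channel and its partners, SSR2 fell at both ages. SSR2 encodes the beta subunit of the translocon-associated protein complex, which sits beside the Sec61 channel and helps some signal sequences to enter it. The gene lies at sgr09:6658384-6665451 on the minus strand. In young control livers its levels were 286, 333, 145, 178 and 308 CPM, and in young GR livers 96.6, 73.3, 61.4, 132 and 99.8 CPM. In old fish they were 382, 257, 265, 366 and 308 CPM in control livers and 149.9, 187, 93.3, 114 and 75.5 CPM in GR livers. The groups did not overlap at either age. The log2 fold change was -1.36 ± 0.28 in young (adjusted p = 0.000738 by edgeR) and -1.49 ± 0.28 in old livers (adjusted p = 5.64e-05), or -1.79 and -1.94 relative to the median gene.

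The other subunits of that complex, SSR1, SSR3 and SSR4, did not pass at either age. Their log2 fold changes in young livers were -0.00 for SSR1, 0.00 for SSR3 and -0.23 for SSR4, and in old livers -0.49, -0.16 and -0.55. All of these values lie below the median gene of the same age, which is not a mark of no change. Among 30 alternatives SSR4 was called lower in 3 in young and 5 in old livers, SSR3 in 1 at each age, and SSR1 in 0 and 1. The difference between SSR2 and its partners was not tested. SEC61B, the beta subunit of the channel at sgr05:66995611-67001340, had 763, 1122, 869.5, 1204 and 1069.7 CPM in young control and 706, 845, 815, 771 and 805 CPM in young GR livers. In old fish it had 764, 641, 1081, 1174 and 1207 CPM in control and 632, 624, 564, 808 and 649.6 CPM in GR livers. The groups overlapped at both ages. Its change of -0.72 ± 0.24 in old livers passed by a small margin (adjusted p = 0.0416 by edgeR) and that of -0.28 ± 0.17 in young livers did not (adjusted p = 0.368). Leaving out 1 library at a time, it passed in 4 of 10 cases in old livers, with an adjusted p from 0.00965 to 0.141 by edgeR. Among all 30 alternatives SEC61B was called lower in 3 in young and 15 in old livers. Its model overlaps another gene, ALG2, on the opposite strand.

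SEC61A1, the pore-forming subunit, is annotated as 2 genes named (1 OF 2). The more abundant, Nfu_g_1_021258 on sgr10, had 1125, 1629, 1047, 1945 and 1507 CPM in young control and 1154, 1311, 1147, 1258 and 1069 CPM in young GR livers. In old fish it had 1014, 462, 1204, 1348 and 1368 CPM in control and 1001, 935, 893, 1002 and 987 CPM in GR livers. Control livers spread more widely than GR livers and overlapped with them. Its log2 fold changes were -0.21 ± 0.17 and -0.32 ± 0.24 and neither passed (adjusted p = 0.497 and 0.484 by edgeR). Among 30 alternatives it was called lower in 4 in young livers, RLE size factors among them (-0.52), and in 2 in old livers. The other, Nfu_g_1_021674, had 57.2, 108, 32.2, 61.8 and 16.2 CPM in young control and 71.1, 60.4, 61.4, 20.3 and 5.87 CPM in young GR livers. Old fish had 16.6, 77.0, 20.4, 58.3 and 49.3 CPM in control and 10.7, 26.2, 32.5, 50.7 and 25.2 CPM in GR livers. These groups overlapped, and the changes of -0.35 ± 0.45 and -0.72 ± 0.49 did not pass. SEC62 and SEC63, which assist the channel after translation, did not pass either.

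In signal peptidase and in the oligosaccharyltransferase no tested member passed at either age. DDOST, a subunit of the enzyme that transfers the glycan to the protein, had 267, 291, 209, 425 and 308 CPM in young control and 305, 224, 303, 380.3 and 270.1 CPM in young GR livers. Old fish had 199, 103, 347, 166 and 111 CPM in control and 252, 179, 215, 241 and 237 CPM in GR livers. The groups overlapped, and the log2 fold changes were 0.03 ± 0.22 and 0.17 ± 0.30. The sign of these small values depends on the scaling. RPN1 and RPN2, the ribophorins of the same enzyme, had -0.46 ± 0.22 and -0.04 ± 0.24 in young livers and -0.21 ± 0.28 and -0.08 ± 0.29 in old ones. Of the peptidase genes, SPCS3 had 0.09 ± 0.20 and 0.18 ± 0.27, and SEC11A, the catalytic subunit, had -1.38 ± 0.61 and -0.19 ± 0.92.

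CRELD2 was the chaperone group's only called gene, and the lowest of all tested members by adjusted p. It encodes an ER-resident protein known in mammals to be induced by ER stress, and lies at sgr01:71705697-71710718. Young control livers had 553, 357, 531, 432 and 454 CPM and young GR livers 86.4, 94.9, 131, 137 and 94.0 CPM. Old control livers had 548, 667, 408, 508 and 444 CPM and old GR livers 74.9, 187, 118, 156 and 121 CPM. The lowest control liver lay above the highest GR liver at both ages. The log2 fold change was -1.98 ± 0.23 in young (adjusted p = 3.88e-08 by edgeR) and -2.06 ± 0.27 in old livers (adjusted p = 1.20e-08), which is 3.94-fold and 4.18-fold lower.

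Other chaperones had smaller values. HSP90B1 (GRP94), the ER form of HSP90, averaged 899 ± 101 CPM in young control and 612 ± 74.7 CPM in young GR livers, and the groups did not overlap. In old fish the means were 811 ± 135 and 549.8 ± 207 CPM and the groups overlapped. Its log2 fold changes of -0.48 ± 0.17 and -0.70 ± 0.25 did not pass (adjusted p = 0.0811 and 0.0637 by edgeR). HSP90B1 was called lower in 20 of 30 alternatives in young livers, including 9 of the 10 libraries that can serve as the TMM scaling reference, and in 7 of 30 in old livers. HYOU1 and DNAJB11, which work with BiP, had 0.01 at young age, and -0.22 and -0.47 in old livers. CALRL, the calreticulin-like lectin chaperone gene, had 0.15 ± 0.18 and -0.06 ± 0.23.

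PDIA4 (ERp72), a disulfide isomerase, fell at both ages. It had 114, 191, 242, 278 and 194 CPM in young control and 117, 69.0, 86.0, 96.3 and 94.0 CPM in young GR livers. In old fish it had 99.7, 128, 184, 233 and 160.2 CPM in control and 48.2, 74.8, 118, 84.6 and 80.6 CPM in GR livers. The lowest control liver lay within the GR range at each age. The log2 fold change was -1.1 ± 0.26 in young (adjusted p = 0.00364 by edgeR) and -1.15 ± 0.32 in old livers (adjusted p = 0.0112). Without old control replicate 4, which had the highest level, the old change was -0.95 and did not pass (adjusted p = 0.114).

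P4HB, the classical protein disulfide isomerase and the most abundant of the isomerases, averaged 3063 ± 474 CPM in young control and 2086 ± 377 CPM in young GR livers. The highest GR liver (2489.9 CPM) was just below the lowest control liver (2496 CPM). In old livers the means were 2291 ± 237 and 1735 ± 181 CPM, with overlap. The log2 fold changes of -0.47 ± 0.16 and -0.54 ± 0.23 did not pass (adjusted p = 0.0593 and 0.137 by edgeR). Among 30 alternatives P4HB was called lower in 22 in young livers, 9 of the 10 TMM reference libraries among them, and in 4 in old livers. PDIA3 had -0.04 ± 0.31 and -0.57 ± 0.31.

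In ER export, LMAN1 fell at both ages. LMAN1 (ERGIC-53) is a lectin that carries glycoproteins out of the ER, known in mammals for coagulation factors V and VIII. The gene is at sgr02:59801290-59820032 on the minus strand. Its levels were 705, 582, 515, 779.7 and 746 CPM in young control livers and 224, 328, 258, 228 and 329 CPM in young GR livers. In old fish they were 681, 513, 673, 774 and 567 CPM in control livers and 278, 303, 284, 309 and 252 CPM in GR livers. Every control liver was above every GR liver of its age. The log2 fold change was -1.20 ± 0.20 in young (adjusted p = 3.53e-05 by edgeR) and -1.31 ± 0.24 in old livers (adjusted p = 4.05e-05), or 2.29-fold and 2.48-fold lower. The related lectin LMAN2 had -0.21 ± 0.35 and 0.18 ± 0.43.

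Groups that do not overlap were lower in GR for 5 of 35 young members (LMAN1, SSR2, CRELD2, P4HB, HSP90B1), against 1.65% of all genes lower and 7.09% higher, and for 4 of 36 old members (LMAN1, SSR2, CRELD2, KDELR2A), against 1.18%. In the other direction SEC23B alone did so, in old livers, against 10.5% of all genes.

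**Figure D2:**
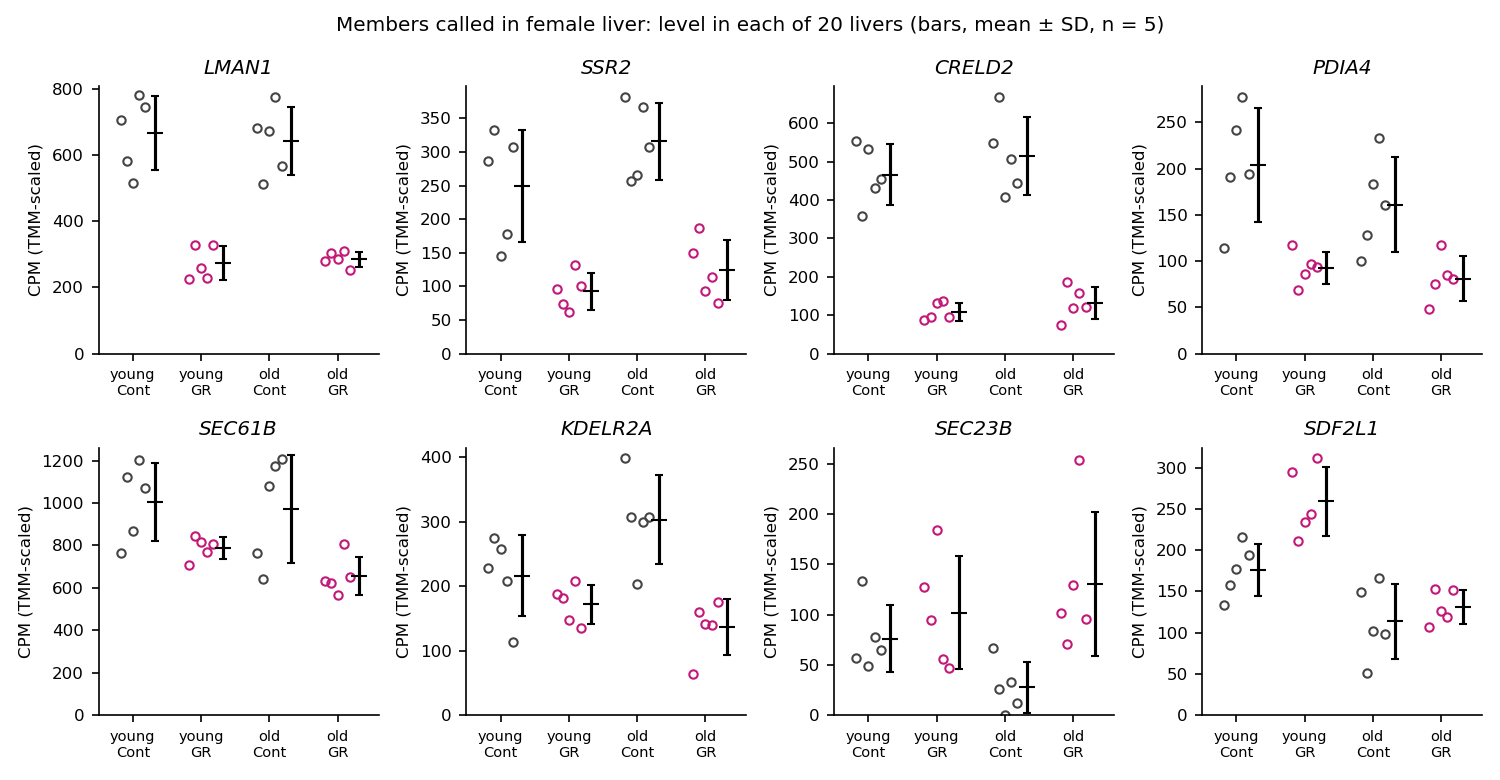
Level in CPM of 8 members in each of the 20 female livers, in young and old control (Cont) and germ cell–removed (GR) fish, with the mean ± SD of 5 livers beside the points. For LMAN1, SSR2 and CRELD2 all control livers lie above all GR livers of the same age, and for SEC23B in old fish all GR livers lie above the control livers.

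The KDEL receptor genes return escaped chaperones to the ER. KDELR2A, at sgr03:58515832-58519939, had 229, 274, 258, 208 and 113 CPM in young control and 188, 181, 147, 208 and 135 CPM in young GR livers, which overlapped. In old fish it had 399, 308, 204, 299.6 and 308 CPM in control and 64.2, 161, 142, 139.5 and 176 CPM in GR livers, which did not. The change was -0.27 ± 0.25 in young and -1.27 ± 0.28 in old livers, where it passed (adjusted p = 0.000817 by edgeR). The difference between the ages did not pass (interaction -0.79 ± 0.38, adjusted p = 0.715). KDELR2 (1 OF 2) fell in old livers by 2.68 on the log2 scale (adjusted p = 0.0327 by edgeR), on 1, 1, 0, 4 and 1 counts in control livers and 0, 1, 1, 0 and 1 in GR livers. In young fish it had 2, 1, 1, 1 and 2 counts in control and 2, 0, 0, 1 and 0 in GR livers. The old call was kept in 4 of 7 alternatives that tested the gene and in 1 of the 3 that tested it with a library left out, and its model overlaps another gene. KDELR2B had at most 3 counts in any liver.

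SEC23B, a subunit of the inner COPII coat at sgr02:30361301-30373559, was the called member that rose. In old fish it had 66.5, 25.7, 0, 33.3 and 12.3 CPM in control livers, from at most 4 counts, and 102, 71.0, 129.8, 254 and 95.7 CPM in GR livers. In young fish the groups overlapped, with 57.2, 133, 48.3, 77.2 and 64.8 CPM in control and 127, 94.9, 184, 55.8 and 47.0 CPM in GR livers. The log2 fold change in old livers was 2.05 ± 0.48 (adjusted p = 0.00147 by edgeR), and that in young livers was 0.42 ± 0.36. The interaction of age and germ cell removal was 1.83 ± 0.64 and did not pass (adjusted p = 0.585 by edgeR), which does not show that the ages are alike. When all libraries were thinned to the smallest total, the old change did not pass (adjusted p = 0.140). SEC31A, of the outer coat, had 0.02 ± 0.32 and -0.70 ± 0.39.

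As a share of all counts, the 52 members took 1.08% ± 0.0917 (SD, n = 5) in young control and 1.01% ± 0.0963 in young GR livers, and these overlapped. In old fish the shares were 1.23% ± 0.0874 (lowest 1.1%) and 0.930% ± 0.127 (highest 1.16%, in replicate 4), which also overlapped. With vitellogenin counts left out of the total, they were 1.38% ± 0.115 against 1.01% ± 0.0963 in young and 1.53% ± 0.140 against 0.930% ± 0.127 in old livers, with no overlap at either age. Leaving out vitellogenin raised the control shares and left the GR shares nearly unchanged, so this separation depends on the total that is chosen. These shares are descriptions and were not tested.

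**Figure D3:**
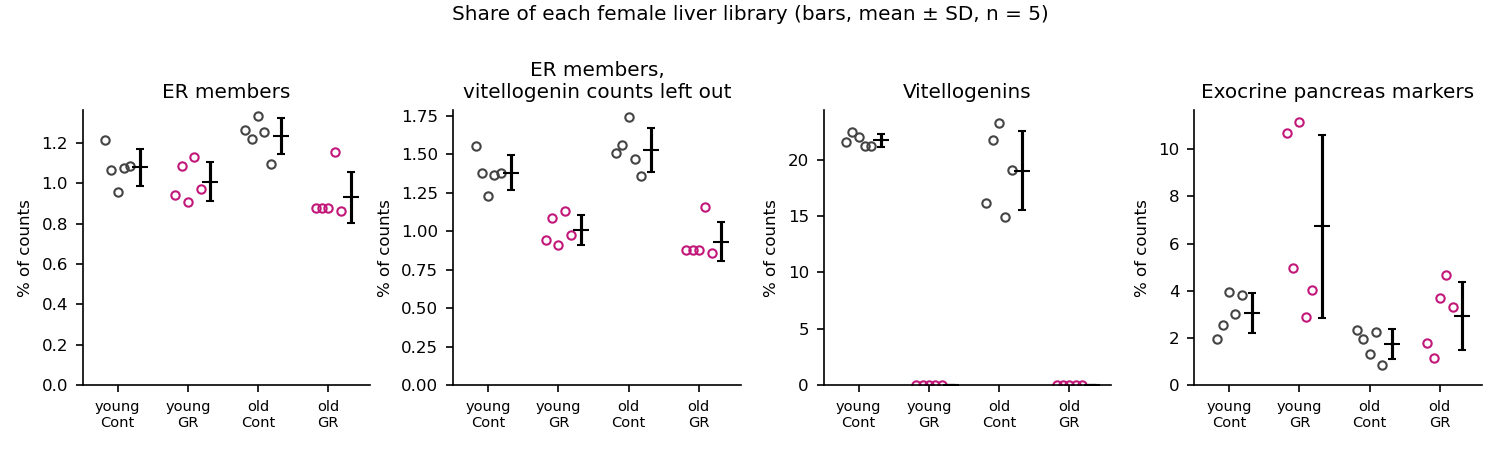
Share of each female liver library, in percent of counts, taken by the members, by the members with vitellogenin counts left out of the total, by vitellogenins and by exocrine pancreas markers (means ± SD of 5 livers beside the points). Leaving out vitellogenin raises the members' share in control (Cont) livers and leaves it nearly unchanged in GR livers, and the groups then do not overlap. Pancreas markers are higher on average in GR livers.

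Many genes for other secreted liver proteins rose. Of 28 tested genes of that list, 21 rose and 0 fell in young livers (7.93% and 1.78% of all genes), and 20 rose and 2 fell in old ones (6.81% and 2.04%). The remaining gene of the list, F2R, is a receptor gene taken by the letter rule and was not tested. Hepatocyte markers took 3.33% ± 0.300 of counts in young control and 14.8% ± 1.78 in young GR livers, and 3.29% ± 0.602 and 12.5% ± 0.816 in old ones. Most of these markers (APOA1, FGB, TFA, HPX, AHSG and APOB) are also on the list of secreted liver proteins, so this is not a separate result. Exocrine pancreas, whose cells also have an extensive ER, lies close to or within the liver in many teleosts. Its markers were at 3.05% ± 0.854 (1.93 to 3.96%) in young control and 6.74% ± 3.88 (2.88 to 11.1%) in young GR livers, with 10 of 14 tested genes called higher. In old livers they were at 1.74% ± 0.634 (0.869 to 2.33%) and 2.92% ± 1.43 (1.14 to 4.66%), with 1 of 13 called. TRY and CELA1 (1 OF 2), both encoding digestive proteases, had the most counts of that list. The part of pancreatic cells in the members' values was not tested. Skeletal muscle markers stayed at or below 0.0156% in all livers.

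Of 8 tested genes of the unfolded protein response, 1 fell in young livers (1.78% of all genes) and none passed in old livers (8.86% in either direction). The median of the list was -0.62 in young and 0.07 in old livers, or -1.06 and -0.37 relative to the median gene. That gene's position depends on the scaling and is not a mark of no change. XBP1, its central transcription factor, had -0.49 ± 0.19 in young and -0.56 ± 0.27 in old livers and did not pass (adjusted p = 0.101 and 0.200). ERN1 (IRE1), which splices XBP1 RNA, had -0.75 ± 0.39 and -0.22 ± 0.61. ATF4 and EIF2AK3 had no value in these tests.

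The genes named next were chosen after their values were seen. They are those called at 1 age in the lists of glycan assembly, other folding enzymes, ER-associated degradation, membrane insertion and the unfolded protein response. In young livers PPIB (-0.49, a prolyl isomerase) and CHAC1 (-1.94) fell, and PDIA2 (1.06), an isomerase that is also on the exocrine pancreas list, rose. These came from 15 tested genes of other folding enzymes and 8 of the unfolded protein response, where 1.78% of all genes were lower and 7.93% higher. In old livers ERLEC1 (-1.23), ALG5 (-1.09), a gene named ALG11 (2 OF 2) (-1.59) and TRAM1 (-1.58) fell, and ALG13 (1.81) and EMC1 (1.69) rose. Another gene of the list, also named ALG11 (2 OF 2), was not called. Tested in old livers were 17 genes of glycan assembly, 14 of ER-associated degradation and 12 of membrane insertion. Of all genes 2.04% were lower and 6.81% higher there. No tested gene of the additional COPII list passed at either age, out of 9 in young and 10 in old livers.

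With age, no member passed in control livers (0 of 35, against 2.01% of 3385 genes, 0.975% higher and 1.03% lower), and DESeq2 also called 0. An unadjusted p under 0.05 was found for 3 members, without the share of all genes to set it against. In GR livers 1 of 35 passed, against 3.54% of 6694 genes (1.82% higher and 1.72% lower). This was SDF2L1, known in mammals as a partner of the BiP co-chaperone DNAJB11, at 295, 211, 233, 243 and 311 CPM in young GR livers and 107, 153, 126, 118 and 151 CPM in old ones. It fell by 1.0 ± 0.20 on the log2 scale (adjusted p = 0.00519 by edgeR), without overlap. In control livers it had 133, 158, 177, 216 and 194 CPM in young and 149.5, 51.3, 102, 166 and 98.6 CPM in old fish, and the change of -0.31 ± 0.32 did not pass. Whether germ cell removal acted differently at the 2 ages was tested by the interaction, and 0 of 38 members passed (0.0408% of 7349 genes did). An unadjusted p under 0.05 was found for 4 of these members, and DESeq2 called 0. The share of all genes at that unadjusted threshold is not given, so the 4 are not read as a result.

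In muscle no member passed for germ cell removal. This held for young females (0 of 30 members, against 0.0639% of 4696 genes, 0.0213% higher and 0.0426% lower), old females (0 of 31, against 0.165% of 6050), young males (0 of 29) and old males (0 of 29), where 0% of genes were called. Unadjusted p under 0.05 was found for 2, 2, 2 and 0 members, and DESeq2 called none. The share of all genes at that unadjusted threshold is not given, so these counts are not read as a change. LMAN1 averaged between 14.8 and 32.7 CPM in the 8 muscle groups, SSR2 between 5.09 and 16.3 CPM, and CRELD2 between 1.83 and 14.4 CPM. LMAN1 changed by 0.01 ± 0.37 in young and -0.85 ± 0.43 in old female muscle. Control female muscle held vitellogenin at up to 0.240% of counts in young and 1.56% in old fish.

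A test of whether the effect differed between liver and muscle, added after the data were seen, called 0 of 36 members in young (0.404% of 7667 genes, 0.378% higher and 0.0261% lower) and 0 of 36 in old females (2.11% of 8278, 2.02% higher and 0.0966% lower). Unadjusted p under 0.05 was found for 3 and 5 members, again without the share of all genes beside it. DESeq2 called 0 in young and 1 in old females. For SSR2 the difference was -1.75 ± 0.68 in young (adjusted p = 0.257 by edgeR) and -1.89 ± 0.70 in old females (adjusted p = 0.156), and for LMAN1 -0.96 ± 0.48 and 0.05 ± 0.38. A value near 0 here is not the position of the median gene. The median member was at -0.15 in young and 0.39 in old females, which is -0.93 and -0.46 relative to the median gene.

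The members were higher in liver than in muscle. In control females 29 of 36 members were called higher in liver (16% of 7142 genes) and 1 lower (32.3%, and 48.3% in either direction), with a median member log2 difference of 2.23 against -0.61 for the median gene. In GR females 30 of 35 were higher (26.8% of 8526 genes) and 1 lower (21.1%, and 47.8% in either direction), with 2.25 against 0.19. Tissue and sequencing pool were the same factor here. The gene lower in liver in both was SRP9, at -1.08 ± 0.30 and -1.01 ± 0.23. CRELD2 had the highest difference in control females (4.61 ± 0.25) and 3.80 ± 0.30 in GR females. SSR2 had 4.43 ± 0.30 and 2.61 ± 0.28, LMAN1 3.78 ± 0.23 and 3.29 ± 0.23, and SEC23B 0.99 ± 0.40 and 3.05 ± 0.35.

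**Figure D4:**
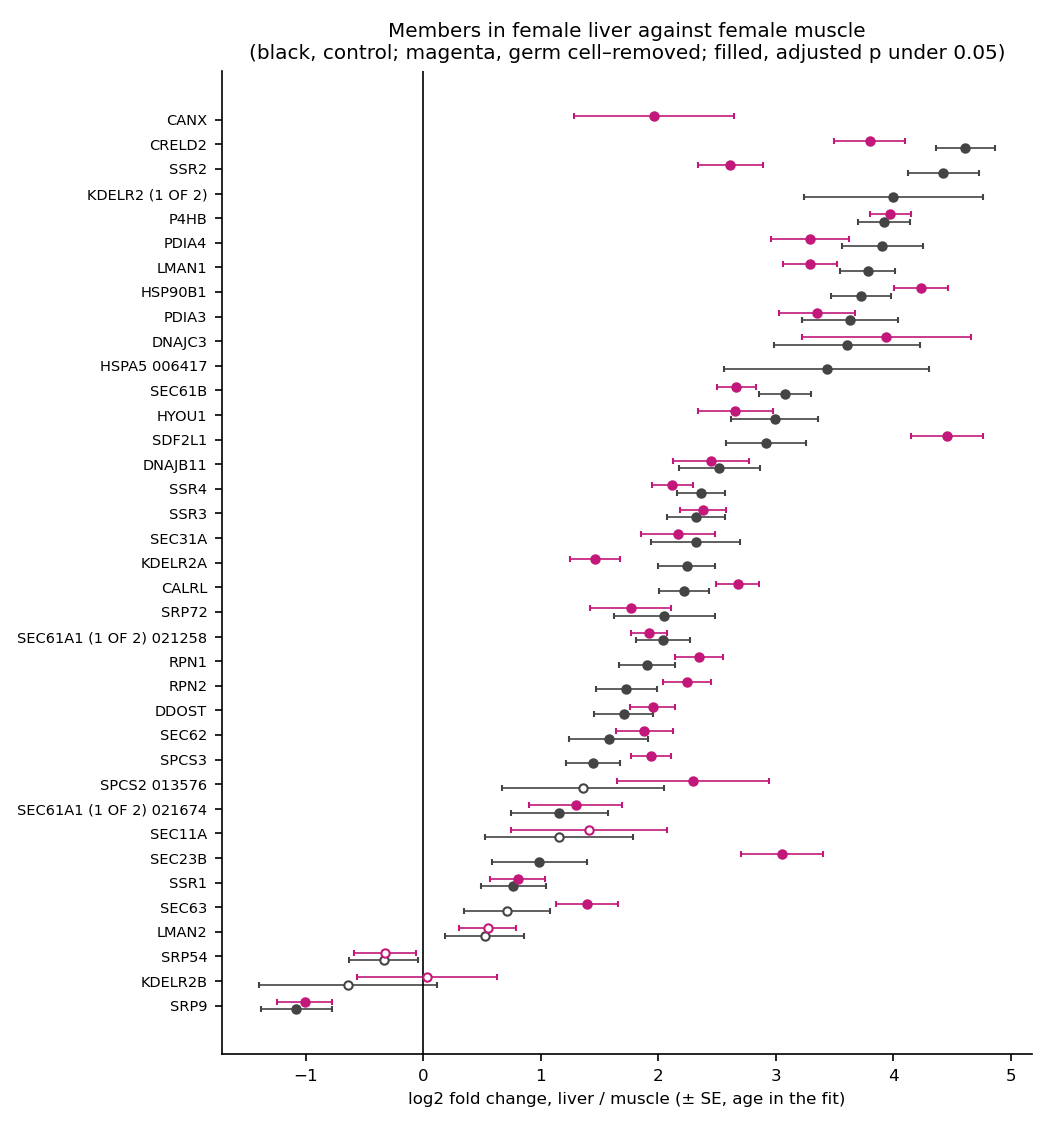
Log2 difference (± SE) of each tested member between female liver and female muscle, in control (black, 10 livers and 10 muscles) and GR fish (magenta, the same numbers), with age in the fit. Filled points passed the test. Nearly all members lie right of 0, and SRP9 lies left of it in both groups.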

How the data were processed

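The authors demultiplexed the BRB-seq pools, sampled the reads of some libraries to 1000000, trimmed them with Trim Galore 0.6.7, mapped them to the GRZ assembly with HISAT2 2.2.1, counted genes with featureCounts 2.0.1 and collapsed UMIs with UMI-tools. The deposited values are raw counts per gene, not normalized. Groups came from the column names of the table, since the 2 samples are pools. The 20 male liver columns were not used, because their counts fill 20406 lines and the gene names 18529. Libraries of a group differed by more than counting error in all 120 pairs compared (lowest chi-square per degree of freedom 1.46).

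Genes with at least 10 counts over the libraries compared were tested with edgeR 4.0.16 in R 4.3.3 (TMM, estimateDisp, glmQLFit, glmQLFTest) and Benjamini-Hochberg adjustment over all genes tested, at a threshold of 0.05. SE was derived from the fold change and its F statistic. DESeq2 1.42.0 was an alternative. Tables and figures used Python 3.11.15, numpy 2.4.6, pandas 2.3.3 and matplotlib 3.10.9. The test was tried on simulated data. The replicate number was checked as a pairing by correlating deviations from group means. In old male muscle all 5 same-numbered pairs correlated above 0.1 (0.169 to 0.500). In the other treatment and age comparisons at most 3 of 5 did, in old female muscle (highest 0.200). Liver and muscle of old GR females correlated above 0.1 in 5 of 5 pairs (0.112 to 0.236), and those of the other female groups in 2 or 3 of 5.

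Values of every female liver are given for members called there by germ cell removal, and for LMAN1, HSPA5, SEC61A1, DDOST and KDELR2. The exceptions are HSPA5 model Nfu_g_1_006740 and KDELR2B, for which only the highest count, or the total with it, is given. Genes of other lists are named if called at both ages, except 1 result that is not reported here, and some called at 1 age were named after their values were seen. Members, lists and tests were chosen with earlier results of these data known. Alternatives were RLE size factors, plain library sizes, no genes over 1% of a library, filterByExpr, every gene with at least 1 count, DESeq2, the legacy fit, thinning (seed 1), the replicate block, all groups in 1 fit and leaving out each library. The choice of TMM reference library and the tissue interaction were added after seeing the data.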

Additional observations from a re-analysis of the deposited data

Results flagged for a closer look

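In old GR livers the share of counts taken by the 52 members was 1.157% in replicate 4, against 0.8799% in the next highest liver, which is far from the others of its group of 5. The gap was 0.938 of the whole range, over the critical value of 0.71. Of 60 sets of 5 values examined this way (the named members, the members' share and the pancreas share in each liver group) it was the 1 that stood out. By chance about 1 in 20 sets would pass this critical value, so 1 flag in 60 sets is no more than chance would give. Leaving this liver out, 8 members fell and 1 rose in old livers, against 7 and 1 with it. With it, 2.04% of all genes were lower and 6.81% higher, and the shares without it are not given.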

How the results depend on the processing

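CRELD2, LMAN1 and SSR2 kept their direction and passed at both ages in every alternative, and PDIA4 in all but the one without old control replicate 4. The numbers of members called varied more. For germ cell removal in young liver, 4 were called with TMM (1.78% of all genes lower), 10 with RLE size factors (3.55%), 13 with filterByExpr (19.3% of 1012 genes), 10 with DESeq2 (3.43%) and 8 with thinned libraries (5.59% of 2469 genes), all lower. In old liver filterByExpr called 16 (15 lower, against 16.7% of 1024 genes), against 8 with TMM. filterByExpr and thinning tested fewer genes and called a larger share of them lower, so these calls have another background. The shares lower in the main test, 1.78% in young and 2.04% in old liver, thus depend on how many genes with few counts are included. For age in GR liver filterByExpr called 2, both lower (8.74% of 1338 genes were lower), against 1. For the tissue interaction in young females filterByExpr called 2 members, both lower (5.61% of 1445 genes were lower), against 0. In old females RLE size factors, filterByExpr and DESeq2 called 1 each, all lower, against 0. The shares of all tested genes called lower there were 0.121%, 0.476% and 0.326%. Leaving out 1 library gave 4 to 6 calls in young and 5 to 9 in old liver, and 1 to 1 for age in GR liver. It gave 27 to 31 and 31 to 32 for liver against muscle in control and GR females. For the tissue interaction in old females it gave 0 to 1. The share of all genes called in these fits is not given, so the ranges do not separate the members from that background.

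TMM scales all libraries to 1 reference. In young livers edgeR chose control replicate 1, the shallowest (48679 counts), which gave the smallest scaling difference between GR and control livers (0.195 on the log2 scale) of the 10 possible references (up to 0.394). With 1 library left out, the young fold changes of LMAN1 (-1.42 to -1.24) and CRELD2 (-2.21 to -2.01) do not contain the values in the report. Another reference could be chosen in those fits, but which one was chosen was not recorded. Over the 10 references 4 to 6 members were lower in young and 6 to 8 in old livers, and the median gene lay at 0.25 to 0.43 in young livers. Relative to the median gene the median member was -0.84 to -0.53 in young and -1.20 to -0.78 in old livers under the alternatives.

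Values near 0 changed sign. DDOST in young liver was -0.27 with RLE size factors, -0.12 without genes over 1% of a library, -0.45 with filterByExpr, -0.0115 with every gene with at least 1 count, -0.27 with DESeq2, -0.0504 with thinned libraries and -0.0573 with all groups in 1 fit. It was -0.22 to 0.0498 with 1 library left out, and negative with 9 of 10 TMM references. In old liver it was -0.11 with RLE size factors, -0.23 with filterByExpr, -0.12 with DESeq2 and -0.44 with thinned libraries. SEC23B in young liver was -0.0256 with filterByExpr, -0.14 with thinned libraries and -0.0876 to 0.64 with 1 library left out. SEC61A1 Nfu_g_1_021258 in young liver was 0.0055 with plain library sizes. With the replicate block 5 members were called in young liver, all lower (1.52% of all genes). In old liver 6 were called, 5 lower (1.67% of all genes) and 1 higher (6.17%). The block left the number of members called as it was in old male muscle (0) and in the tissue interaction in old females (0). It did so too in liver against muscle of GR females (31, against 44.5% of all genes in either direction). Control livers had the lowest counts, which limits what could be detected. This is not confined to members with few counts, and a member that did not pass is not shown to be unchanged.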
